A study of Mus musculus with 5 samples.

Results

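Transcripts of glycosyltransferase families were compared between mouse colon spheroids that carry dimerization-deficient Notch alleles and wild-type (WT) spheroids. These families include the enzymes that build and cap mucin-type O-glycans. The 67 genes were taken by symbol: every Galnt, Galntl, B3gnt, B3galt, B4galt, Gcnt, St3gal, St6gal, St6galnac and Fut gene with a number, plus C1galt1 and C1galt1c1. They are 67 of the 32793 genes in the expression tables, and 51 of them had enough counts to be tested. Colon spheroids are epithelial cells of the large intestine grown in culture as hollow balls. The mutant group had 2 libraries, in which the alleles Notch1DD and Notch2DD are expressed (called NDD). The control group had 3 libraries of the WT genotype, and the titles call the mutant group RA without saying what that stands for. All 5 shared a mixed strain background, mostly C57Bl6 with some FVB. Age, sex, zygosity and culture conditions were not given in the sources used here, and nothing says whether the libraries came from separate mice or cultures. The p-values therefore measure only the spread between these samples, which may be technical.

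Mucin-type O-glycosylation starts in the Golgi, where polypeptide GalNAc transferases (the Galnt enzymes) attach the sugar GalNAc to serine or threonine. C1galt1, with its chaperone C1galt1c1, adds galactose to make the core 1 structure, and Gcnt enzymes and B3gnt6 make the branched and the other cores. Further GlcNAc and galactose lengthen the chains, and sialic acid or fucose caps them. In the colon these chains clothe the secreted mucin of goblet cells and the membrane mucins of absorptive cells, and they feed and shelter gut bacteria. Several enzymes named by these symbols act on N-glycans or glycolipids, and some, such as Fut8 and B4galt6, are known chiefly for that. The groups and sums below include them, so they are not limited to mucin-type O-glycans.

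The libraries held between 19192389 and 23064000 estimated counts, so that a floor of 3 counts equals 0.13 to 0.156 CPM (counts scaled to a common library size). Over all tested genes the 2 NDD libraries had a Spearman correlation of 0.966, below the 0.984 to 0.987 of the WT pairs. With WT replicates 1, 2 and 3, NDD replicate 1 had 0.985, 0.982 and 0.973, and NDD replicate 2 had 0.961, 0.966 and 0.939. NDD replicate 1 was thus closer to every WT library than to NDD replicate 2. Epithelial markers (Epcam, Cdh1, keratins and others) summed to 10088 to 11756 TPM (a length-scaled level, explained with the members) in every library. Fibroblast, immune and endothelial markers summed to at most 2.21, 8.12 and 2.96 TPM. Of 8 colonocyte markers, 8 had a fold change above 0, beside 49.5% of all tested genes, and 7 had every NDD library above every WT library, beside 15.8%. Their summed level was 6881 and 5375 TPM in NDD and 4231, 4079 and 3057 TPM in WT. Phgr1, a marker of surface colonocytes, passed the test (log2 fold change 1.32, SE 0.12, edgeR adjusted p 0.0373). That call was lost without WT replicate 1, a fit in which 0 genes passed. The part of colonocyte content in the transferase values below was not tested. In bulk RNA, fewer cells of a type and less RNA per cell cannot be told apart. Notch1 (56 and 55.1 CPM in NDD; 69.1, 61.7 and 56.3 CPM in WT) and Notch2 were read in every library. Their RNA does not check the labels, since the alleles are mutated and not deleted.

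RNA levels differed widely among the transferases. Of the 67 genes, 29 were at 10 TPM or more in every library and 19 were under 1 TPM in every library. These 2 shares were not taken over all genes. Enough counts to be tested were found for 51 of the 67 members, beside 13501 of all 32793 genes. TPM is a level per length of transcript, so it can be set side by side between genes. B3gnt3, which extends core 1 with GlcNAc, and St6galnac6, which adds sialic acid to glycolipids and related chains, were the only members at 100 TPM or more in every library. B3gnt3 averaged 326 TPM over the 5 libraries with a range of 296 to 367 TPM, and St6galnac6 averaged 324 TPM with a range of 188 to 566 TPM. These ranges overlap, and the order within libraries differed between the groups. St6galnac6 was above B3gnt3 in both NDD libraries (566 and 376 against 367 and 296 TPM). It was below B3gnt3 in every WT library (254, 237 and 188 against 337, 321 and 310 TPM). The next means over the 5 libraries were 149 TPM for St3gal6 (86.4 to 218), 97.9 for B3gnt7 (51 to 124), 93.0 for Fut8 (80.9 to 107) and 90.8 for B3galt5 (44.6 to 160). These ranges overlap too, but within every library St3gal6 was the highest of the 4 (163 and 218 TPM in NDD, and 86.4, 150 and 126 TPM in WT). The order of B3gnt7, Fut8 and B3galt5 differed between libraries. B3gnt6, the enzyme of core 3, was near the bottom, at 0.918 and 0.328 CPM in NDD and 1.29, 0.527 and 0.343 CPM in WT. St6galnac1, the enzyme that makes sialyl-Tn on mucins, was also low, at 1.44 and 2.58 CPM in NDD and 2.23, 1.27 and 0.214 CPM in WT, but 43.2% of its 31-base words recur in other annotated genes, so its counts are uncertain.

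**Figure D1:**
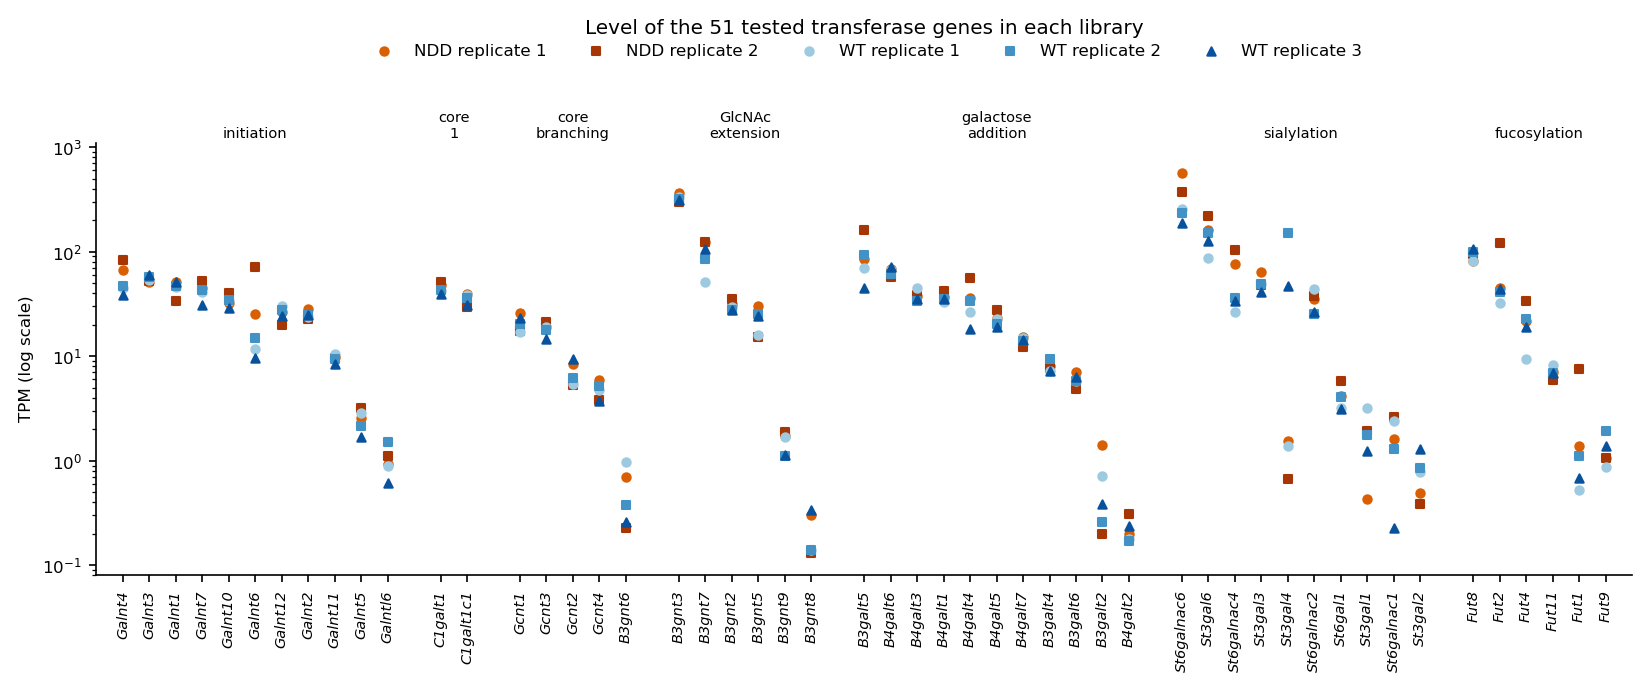
TPM on a log scale of the 51 tested members in each of the 5 libraries, grouped by the step each enzyme performs and ordered by mean level. B3gnt3 and St6galnac6 lie above 100 TPM in every library, and St3gal4 spans from 0.67 to 150 TPM.

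The 16 genes that were not tested were Galnt9, Galnt13, Galnt14, Galnt15, Galnt16, Galnt18, Galntl5, B3gnt4, B3galt1, Gcnt7, St3gal5, St6gal2, St6galnac3, St6galnac5, Fut7 and Fut10. Of these, 8 had 0 counts in every library. Galnt18 had the highest single count among them, 19, and no other passed 6. Levels under the 3-count floor were not detectable at this depth.

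No transferase passed the test between NDD and WT: 0 of 51 had an edgeR adjusted p under 0.05, where 0.0889% of all 13501 tested genes did. At an unadjusted p under 0.05 there were 11 of 51 members (21.6%), against 11.2% of all genes. Of these 11, 9 were higher and 2 lower in NDD, where 6.49% of all genes were higher and 4.68% lower at that threshold. DESeq2 called 6 members: St6galnac4, St6galnac6, Galnt6, Galnt4 and Fut1 as higher and St3gal4 as lower, beside 2.64% of all genes. The groups did not overlap for 14 members with NDD higher, beside 15.8% of all genes, and for 1 with NDD lower, beside 16.2%. Groups without overlap in either direction made up 32.0% of all genes, and the remaining 36 members overlapped. The fold change was above 0 for 39 members and below 0 for 12, beside 49.5% of all genes above 0, and the median log2 fold change was 0.21 for the members and -0.00 for all tested genes. The counts depended on single libraries. The fits without NDD replicate 1, NDD replicate 2, WT replicate 1 and WT replicate 3 held 52, 51, 51 and 49 members. Without NDD replicate 1, edgeR called 5 members (Fut1, Galnt4, Fut2, Galnt6 and St6galnac4), with the lone NDD library assumed to vary like the WT libraries. That is 9.62% of the 52 members fitted, near the 8.62% of all genes called in the same fit, and 17 members had an unadjusted p under 0.05 against 30.1% of all genes. Without NDD replicate 2 that number was 6 against 7.34%, without WT replicate 1 it was 7 against 9.09%, and without WT replicate 3 it was 7 against 5.14%. edgeR called no member in those 3 fits.

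**Figure D2:**
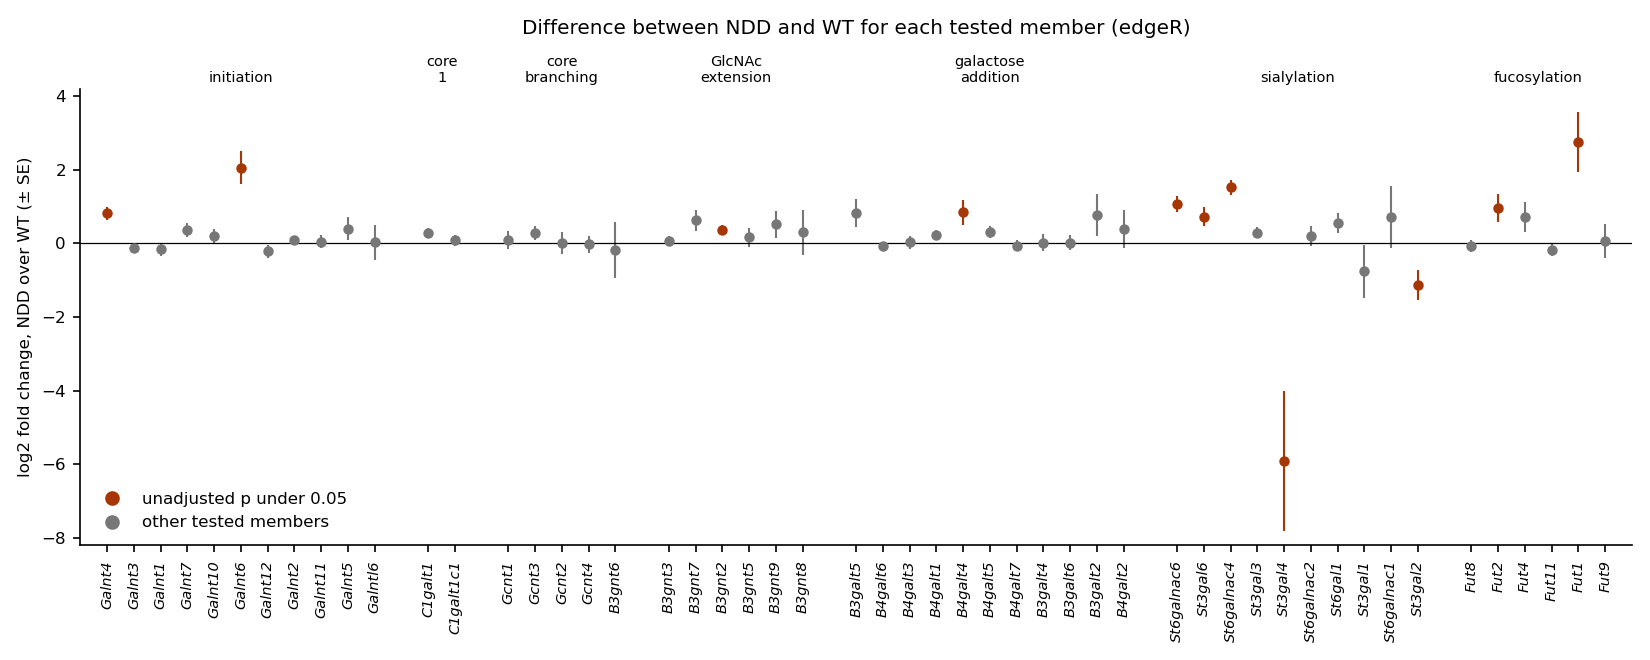
The log2 fold change of NDD over WT in CPM for each tested member, with its standard error from edgeR, grouped by step. The 11 members with an unadjusted p under 0.05 are marked, none passed after adjustment, and St3gal4 lies lowest at -5.91 with the widest error.

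Summed over all members, the NDD libraries held 2433 and 2461 TPM and the WT libraries 1759, 2036 and 1773 TPM. The groups did not overlap (2447 ± 19.9 against 1856 ± 156 TPM, SD, n = 2 and 3). With 2 against 3 libraries the smallest p of a two-sided exact permutation test is 0.2, and this sum reached it. The sialyltransferases summed to 913 and 795 TPM in NDD and 471, 655 and 470 TPM in WT, with a log2 difference of 0.70 (exact permutation p = 0.2). Without St3gal4 the sialyltransferase sums were 911 and 795 TPM against 469, 505 and 423 TPM, a log2 difference of 0.87. Without St6galnac6 they were 347 and 420 TPM against 216, 418 and 282 TPM, so that the groups overlapped, with a log2 difference of 0.37 (exact permutation p = 0.4). Of the 418 TPM in WT replicate 2, 150 TPM came from St3gal4, and no sum without both genes was taken. The sums without St3gal4 and without St6galnac6 were chosen after the members' values were seen. The initiating enzymes (340 and 392 against 299, 310 and 280 TPM) and the galactosyltransferases (320 and 407 against 293, 308 and 253 TPM) were also without overlap between the groups in TPM. So, by less, were the core 1 pair (86.9 and 81.5 against 80.7, 78.5 and 70.8 TPM) and the GlcNAc enzymes (554 and 472 against 435, 460 and 470 TPM), and each of these sums had an exact permutation p of 0.2. In CPM the galactosyltransferase sums overlapped, with 761 in NDD replicate 1 and 767 in WT replicate 2. The sums of the branching enzymes and of the fucosyltransferases overlapped between the groups, each with an exact permutation p of 0.6.

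**Figure D3:**
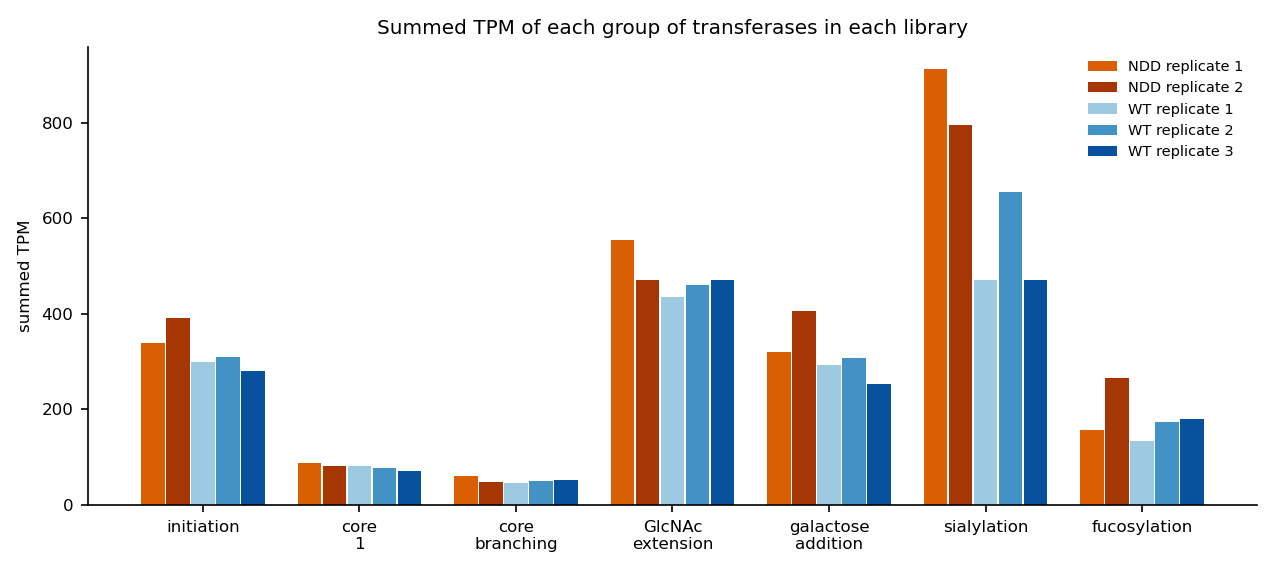
Summed TPM of the 7 groups of transferases, 1 bar per library from 0. The sialyltransferase bars of both NDD libraries (913 and 795 TPM) stand above all 3 WT bars, and the fucosyltransferase bars of the groups overlap.

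Among the initiating Galnt enzymes, 11 of 18 were tested and their median log2 fold change was 0.08. That median was 0.30 without NDD replicate 1 and 0.28 without WT replicate 2. Galnt6 and Galnt4 stood apart. Galnt6 is a close relative of Galnt3, and Galnt4 prefers peptides that already carry GalNAc. Galnt6 (chr15:100691813-100729376, minus strand, GRCm38) was at 85.4 and 257 CPM in NDD and 39.9, 51.6 and 32.2 CPM in WT. Both NDD libraries lay above all WT libraries, and the NDD libraries lay further from each other than NDD replicate 1 did from WT. The log2 fold change was 2.05 (SE 0.45), with an unadjusted p of 0.00367 and an adjusted p of 0.27 in edgeR and 0.000371 in DESeq2. It was 1.07 without NDD replicate 2 and 2.63 at the other end of the fits that left out 1 library. Of the 9 other tested genes within 250 kb of Galnt6, 3 (33.3%) had an unadjusted p under 0.05, all with NDD higher, beside 11.2% of all genes (6.49% higher), and their log2 fold changes ran from -0.10 to 1.43. The highest was Cela1, with an adjusted p of 0.0722 in edgeR and 3.31e-09 in DESeq2. Galnt4 (chr10:99108159-99113247, plus strand) was at 198 and 269 CPM in NDD and 136, 147 and 115 CPM in WT, again without overlap. The log2 difference of 0.82 (SE 0.18) had an adjusted p of 0.27 in edgeR and 0.00961 in DESeq2. Galnt4 lies inside the gene Poc1b on the same strand and shares 7.73% of its 31-base words with it, so its counts are uncertain to that extent. Galnt3, known for protecting the hormone FGF23 from cleavage, was at 108 and 120 CPM in NDD and 115, 128 and 128 CPM in WT. Galnt1, a widely expressed initiating enzyme, was at 115 and 82 CPM in NDD and 106, 110 and 115 CPM in WT. These ranges overlapped, with log2 fold changes of -0.12 (SE 0.12) and -0.16 (SE 0.17), and the sign for Galnt1 turned in a fit that left out 1 library (range -0.43 to 0.07).

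RBPJ, the DNA-binding partner of Notch, is known to recognise the core letters TGGGAA. RefSeq promoter windows of the GRCm38.p6 build, 250 bases before to 50 after a start, were at hand for 49 of the 67 genes. TGGGAA on either strand lay in 17 of their 69 windows (24.6%), and in 25.6% of all 32851 windows. A facing pair of TGNGAA and TTCNCA, 15 to 17 bases apart, the layout at which Notch complexes are known to dimerize, lay in 0 member windows and in 0.152% of all. A match is a description of letters and not of binding. Bases before each start are shown for St6galnac4, Galnt6, Fut1 and St3gal4, which are among the members that DESeq2 called, leaving out exons of the gene itself, with TGGGAA in capitals where it occurs. St6galnac6, also called, starts at the edge of another gene and is shown with its neighbour. The stretches are St6galnac4 (chr2:32586828-32587077, plus strand), Galnt6 before its first start (chr15:100729377-100729626, minus strand) and before an inner start (chr15:100720478-100720727, minus strand), Fut1 before a start inside its annotated span (chr7:45617495-45617605, plus strand) and St3gal4 before a start inside its annotated span (chr9:35116874-35117114, minus strand). All run 5′ to 3′ on the gene's strand.
St6galnac4: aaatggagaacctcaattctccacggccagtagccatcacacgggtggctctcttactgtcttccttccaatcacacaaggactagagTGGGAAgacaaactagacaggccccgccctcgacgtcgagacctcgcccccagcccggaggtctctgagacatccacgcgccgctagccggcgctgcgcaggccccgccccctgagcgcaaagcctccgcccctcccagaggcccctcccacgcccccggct
Galnt6, first start: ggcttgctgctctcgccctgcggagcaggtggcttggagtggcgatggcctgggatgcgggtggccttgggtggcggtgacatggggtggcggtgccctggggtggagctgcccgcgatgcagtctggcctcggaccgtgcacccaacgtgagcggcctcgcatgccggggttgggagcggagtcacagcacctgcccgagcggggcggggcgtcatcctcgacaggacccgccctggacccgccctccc
Galnt6, inner start: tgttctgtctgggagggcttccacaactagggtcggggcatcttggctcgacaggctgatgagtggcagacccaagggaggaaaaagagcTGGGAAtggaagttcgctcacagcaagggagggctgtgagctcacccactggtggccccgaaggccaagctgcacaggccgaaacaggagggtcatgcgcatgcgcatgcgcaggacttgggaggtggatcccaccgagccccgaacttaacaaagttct
Fut1: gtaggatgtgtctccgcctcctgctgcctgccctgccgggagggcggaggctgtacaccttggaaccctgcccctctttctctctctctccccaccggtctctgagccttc
St3gal4: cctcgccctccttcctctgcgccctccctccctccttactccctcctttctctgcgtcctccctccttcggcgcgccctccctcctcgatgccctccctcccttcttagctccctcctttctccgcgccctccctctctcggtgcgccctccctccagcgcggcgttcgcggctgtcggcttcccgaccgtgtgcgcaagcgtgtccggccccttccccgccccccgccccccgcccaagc
TGGGAA lies 162 bases before the start of St6galnac4 and 160 bases before the inner start of Galnt6. The window at the first start of Galnt6 and the Fut1, St3gal4 and St6galnac6 windows hold none.

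The core-building enzymes had small differences between the groups. C1galt1, which makes core 1, was at 53.9 and 62.9 CPM in NDD and 48.7, 50.5 and 44.9 CPM in WT. The groups did not overlap, but the log2 fold change was 0.28 (SE 0.14) with an edgeR adjusted p of 0.469. Leaving out 1 library gave 0.18 (without NDD replicate 2) to 0.38 (without NDD replicate 1). Its chaperone C1galt1c1 was at 26.8 and 23 CPM in NDD and 24.4, 24.6 and 21.7 CPM in WT, which on the log2 scale differs by 0.08 (SE 0.15). Of the branching enzymes, Gcnt1, the main maker of core 2, was at 57.5 and 39.1 CPM in NDD and 37, 44.3 and 54.5 CPM in WT. Gcnt3, a core 2 and core 4 enzyme of mucin-secreting tissue, was at 30.7 and 34.7 CPM in NDD and 29, 29.5 and 22.3 CPM in WT. Gcnt2, which branches lengthened chains, was at 20.9 and 14.1 CPM in NDD and 13.7, 15.7 and 23 CPM in WT. Only Gcnt3 of these 3 was without overlap. Of the 5 tested branching enzymes, 0 had an unadjusted p under 0.05 in edgeR, beside 11.2% of all genes. In DESeq2, 0 of them had an adjusted p under 0.05, beside 2.64% of all genes.

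All 6 tested enzymes that lengthen chains with GlcNAc had a fold change above 0, with a median log2 value of 0.33, and without NDD replicate 1 the fold change was above 0 for 3 of 6. The median was 0.21 without WT replicate 1, with 5 of 6 above 0, and 0.13 in limma with no filter. The most abundant, B3gnt3, was at 424 and 368 CPM in NDD and 396, 386 and 359 CPM in WT. Its groups overlapped and differed by 0.06 (SE 0.13) on the log2 scale. B3gnt7, which acts on sulfated chains, was at 179 and 194 CPM in NDD and 75.5, 130 and 155 CPM in WT. NDD lay above WT throughout, though WT replicate 1 was far below the other WT libraries, and the log2 difference was 0.63 (SE 0.29), with 0.465 as the edgeR adjusted p. Without WT replicate 1 it was 0.39, and without WT replicate 3 it was 0.86. B3gnt2, the main enzyme of poly-lactosamine, was at 41.4 and 48.7 CPM in NDD and 33, 37.2 and 35 CPM in WT. Its log2 fold change of 0.36 (SE 0.14) had an unadjusted p of 0.0402 and an edgeR adjusted p of 0.437. Of the 31-base words of B3gnt2, 64.6% recur in other annotated genes, and 58.4% recur in Gm28048, which is not in the expression tables. Its counts may therefore be uncertain, but whether reads were shared between these genes was not tested.

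The enzymes that add galactose had a median log2 fold change of 0.22, and 1 of 11 tested (9.09%) had an unadjusted p under 0.05, beside 11.2% of all genes. The median was 0.10 without NDD replicate 1, 0.09 without NDD replicate 2, 0.14 without WT replicate 3, 0.13 with at least 10 counts in every library, and 0.01 to 0.07 in the limma fits. The member under 0.05 was B4galt4, at 46.2 and 77 CPM in NDD and 34.7, 45.4 and 23.5 CPM in WT. NDD replicate 1 lay just above WT replicate 2, and the log2 difference was 0.84 (SE 0.33), with 0.437 as the edgeR adjusted p. Without NDD replicate 2 it was 0.43 and without NDD replicate 1 it was 1.15. B3galt5, which makes the type 1 chains typical of gut epithelium, had the highest mean TPM of the group over the 5 libraries, though its range of 44.6 to 160 TPM took in the 57.1 to 72 TPM of B4galt6. It was at 246 and 471 CPM in NDD and 206, 276 and 128 CPM in WT. WT replicate 2 lay above NDD replicate 1, so the groups overlapped around a log2 difference of 0.82 (SE 0.38), with 0.466 as the edgeR adjusted p. Without NDD replicate 2 the value was 0.29 and without NDD replicate 1 it was 1.20. B4galt6, which makes the glycolipid lactosylceramide, was at 234 and 210 CPM in NDD and 235, 220 and 246 CPM in WT. B4galt3 was at 40.6 and 45.5 CPM in NDD and 49.4, 38.7 and 38.7 CPM in WT. Their log2 fold changes were -0.07 (SE 0.12) and 0.03 (SE 0.17), both with overlap.

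Galnt6, Galnt4, B4galt4 and B3galt5 shared an order of libraries, with the highest value in NDD replicate 2 and the lowest in WT replicate 3. That order held for 13 of the 51 tested members (25.5%) and for 17.8% of all tested genes. It also held for 6 of the 8 colonocyte markers (Aqp8, Car4, Krt20, Phgr1, Saa1 and Slc26a3) and for 5 of the 8 goblet markers. Whether colonocyte content had a part in the values of these transferases was not tested.

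Sialyltransferases held the members with the smallest unadjusted p-values. St6galnac4 adds a further sialic acid to sialylated core 1, the structure called disialyl-T. It was at 167 and 241 CPM in NDD and 58.3, 81.5 and 73.8 CPM in WT. Each NDD library lay above every WT library, at 204 ± 52.4 against 71.2 ± 11.8 CPM (SD, n = 2 and 3), a 2.86-fold difference. The log2 fold change was 1.52 (SE 0.21), with an unadjusted p of 0.000345 and an adjusted p of 0.104 in edgeR and 4.51e-07 in DESeq2. The edgeR adjusted p was 0.0275 with a replicate block, which pairs libraries by number only, and 0.0232 with no filter on low counts. In the block fit WT replicate 3 had no NDD partner, so it added nothing to the difference between NDD and WT. The log2 fold change ranged from 1.24 to 1.75 when 1 library was left out. In the fits that left out a WT library the edgeR adjusted p was 0.323 to 0.371. St6galnac6 was at 724 and 518 CPM in NDD and 331, 316 and 241 CPM in WT, again without overlap (621 ± 146 against 296 ± 47.9 CPM). Here NDD replicate 1 was the higher of the NDD libraries, unlike for St6galnac4. The log2 difference was 1.07 (SE 0.21), with an adjusted p of 0.207 in edgeR and 0.000581 in DESeq2. Leaving out NDD replicate 1 gave 0.80. As a share of summed sialyltransferase TPM, St6galnac6 held 62% and 47.2% in NDD and 54%, 36.2% and 40.1% in WT.

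St6galnac4 and St6galnac6 are neighbours on chromosome 2, both protein-coding and on the plus strand. In GRCm38 St6galnac4 spans chr2:32587095-32599698 and St6galnac6 spans chr2:32599709-32620806, so that 10 bases lie between the annotated genes. Of the 31-base words of St6galnac4, 0.0152% recur in other annotated genes, and of those of St6galnac6, 1.78%. How reads across the junction were counted is not given and was not tested. The junction is shown with the 10 bases between the genes in capitals (chr2:32599689-32599718, plus strand).
junction: tctcagggaaGCTGTCAACCacttcctcca
Notch1, which carries the altered allele in NDD, lies 6.07 Mb from St6galnac4 on the same chromosome. Of the 17 other tested genes within 250 kb of St6galnac4, 1 (5.88%) had an unadjusted p under 0.05, beside 11.2% of all genes (Fam102a, log2 fold change 0.38). Their log2 fold changes ran from -0.53 to 0.55 with a median of -0.09.

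**Figure D4:**
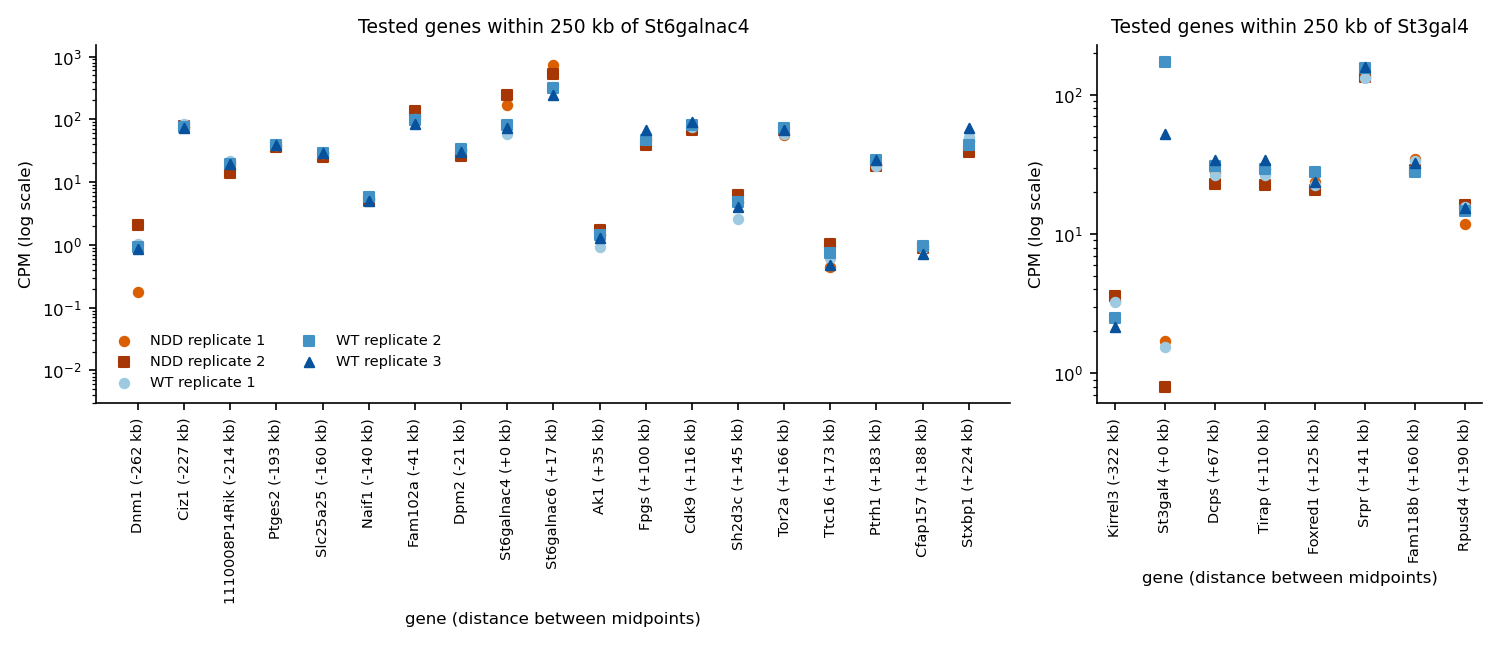
CPM on a log scale in each library for St6galnac4, St3gal4 and the tested genes within 250 kb of each, in chromosomal order with the distance between gene midpoints in kb. The NDD points of St6galnac4 and St6galnac6 lie above the WT points, and St3gal4 is high in WT replicates 2 and 3 while its neighbours lie close together.

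St3gal6 and St3gal4 both cap type 2 chains with sialic acid, and St3gal4 is known for its part in sialyl Lewis x. St3gal6 was at 127 and 191 CPM in NDD and 69.7, 121 and 96 CPM in WT, with NDD replicate 1 just above WT replicate 2. The log2 difference was 0.73 (SE 0.27), at an adjusted p of 0.437 in edgeR and 0.223 in DESeq2. Without NDD replicate 2 it was 0.43, and without NDD replicate 1 it was 0.99. St3gal4 (chr9:35046576-35119268, minus strand) was split within the WT group. It had 39 and 17 counts in NDD, but 30, 3944 and 1227 counts in WT, which is 1.7 and 0.796 CPM against 1.55, 173 and 52.6 CPM. WT replicate 1 thus lay at the NDD level and below NDD replicate 1, and only WT replicates 2 and 3 held the gene at a high level. The fitted log2 fold change of -5.91 (SE 1.90) had an unadjusted p of 0.0202 and an adjusted p of 0.414 in edgeR and 0.0291 in DESeq2. It was -4.42 without WT replicate 2, and edgeR called it in none of the fits that left out 1 library. The split does not follow genotype, and it was looked at further after its values were seen. Of all 13501 tested genes, 1 was at least 10-fold higher in both of those WT libraries than in each of the other 3 libraries and at 10 CPM or more, namely St3gal4, at 30.9-fold. At 4-fold there were 2 such genes and at 2-fold 9. The 7 other tested genes within 250 kb of St3gal4 had log2 fold changes from -0.27 to 0.39. The noncoding gene 4930581F22Rik, which overlaps the St3gal4 promoter on the opposite strand, had 13 and 4 counts in those WT libraries and 3, 1 and 0 in NDD and WT replicate 1. The files do not say whether strand was used in counting.

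St3gal2, which sialylates core 1 and glycolipids, was low throughout, at 1.27 and 1.08 CPM in NDD and 2.07, 2.24 and 3.39 CPM in WT. It was the only member with every NDD library below every WT library, at a log2 difference of -1.13 (SE 0.40), and its adjusted p was 0.437 in edgeR and 0.294 in DESeq2. St3gal1, the other core 1 sialyltransferase of this kind, was at 1.44 and 7.02 CPM in NDD and 11.1, 6.24 and 4.16 CPM in WT, with wide overlap.

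Fut2 and Fut1 differed widely between the NDD libraries. Fut2, the secretor enzyme that makes the H antigen on gut mucins, was at 58.8 and 151 CPM in NDD and 42.5, 59.9 and 59.7 CPM in WT. NDD replicate 1 lay among the WT libraries and only NDD replicate 2 stood apart. On the log2 scale the difference was 0.96 (SE 0.39), at an edgeR adjusted p of 0.446, and it was 0.13 at the low end of the fits that left out 1 library. Fut1, which makes the same antigen mainly in other tissues, was at 1.31 and 9.65 CPM in NDD and 0.725, 1.1 and 0.6 CPM in WT. NDD lay above WT throughout, but NDD replicate 1 by little, and the log2 difference of 2.75 (SE 0.81), with an adjusted p of 0.395 in edgeR and 0.0358 in DESeq2, ranged from 0.71 to 3.56 when 1 library was left out. Fut1 and Fut2 lie 27.5 kb apart on chromosome 7 and were both highest in NDD replicate 2. Some other genes there also had higher values in NDD: of 27 other tested genes within 250 kb of Fut2, 7 (25.9%) had an unadjusted p under 0.05, 6 of them higher and 1 lower, beside 11.2% of all genes. The log2 fold changes of the 27 ran from -1.41 to 2.62 with a median of 0.18. Ntn5 was at 2.62, Rasip1 at 2.19, Dbp at 2.01 and Hsd17b14 at 1.43, each without overlap. Ntn5 had 16 and 27 counts in NDD and 5, 2 and 3 in WT, near the floor. Rasip1 was also low, with 36 and 74 counts in NDD and 9, 15 and 12 in WT. Dbp was at 13.3 and 56.7 CPM in NDD and 9.99, 9.1 and 6.91 CPM in WT, so NDD replicate 2 stood apart. Fut4, a Lewis x enzyme, was at 45.2 and 76.2 CPM in NDD and 20.2, 50.1 and 40.1 CPM in WT, with overlap. Its log2 difference of 0.72 (SE 0.40) ranged from 0.31 to 1.04 when 1 library was left out, lowest without NDD replicate 2. Fut8, which adds core fucose to N-glycans, was at 146 and 177 CPM in NDD and 144, 180 and 183 CPM in WT. Fut2 held 28.6% and 46% of summed fucosyltransferase TPM in NDD and 24.4%, 23.5% and 24.4% in WT, while Fut8 held 51.8% and 35.7% against 61%, 57.6% and 59.8%.

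**Figure D5:**
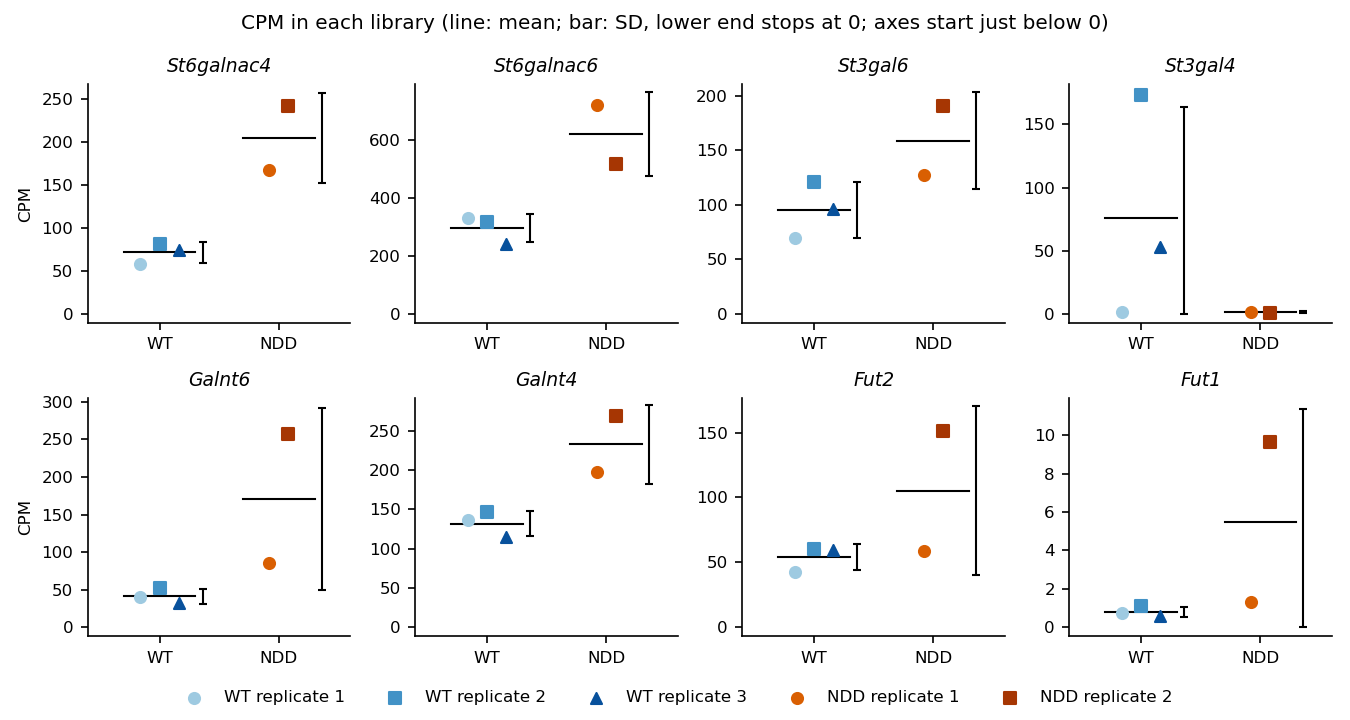
CPM per library for 8 members, with the group mean as a line and the SD as a bar whose lower end stops at 0. St6galnac4, St6galnac6, Galnt6 and Galnt4 have both NDD points above all WT points, St3gal4 is high in WT replicates 2 and 3 only, and Fut2 and Fut1 stand out in NDD replicate 2.

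The enzymes' acceptors and sugar donors were counted on lists of the same pathway. Over all tested genes, 11.2% had an unadjusted p under 0.05 (6.49% with NDD higher), 49.5% a fold change above 0 and 2.64% a DESeq2 call. Of 7 tested mucins, 0 passed the test in edgeR and 1 in DESeq2 (Muc3), 2 had an unadjusted p under 0.05 with NDD higher, and 7 had a fold change above 0. The median log2 fold change was 0.76, and it ran from 0.05 (without NDD replicate 2, with 4 of 7 above 0) to 1.38 (without NDD replicate 1) when 1 library was left out, with 1.26 without WT replicate 1 and 1.17 without WT replicate 3. In limma on log2(TPM + 0.1), 5 of 7 were above 0. Muc3, a membrane mucin of absorptive cells, was at 691 and 831 TPM in NDD and 379, 230 and 111 TPM in WT. It was without overlap, at a log2 difference of 1.53 (SE 0.44) and an adjusted p of 0.39 in edgeR and 0.0179 in DESeq2. Muc2, the secreted mucin of goblet cells, was at 64.1 and 90.5 TPM in NDD and 148, 35.7 and 22.5 TPM in WT, and the highest library was a WT one. Of 23 tested genes that supply activated sugars, 0 passed in edgeR and 1 in DESeq2, and 4 (17.4%) had an unadjusted p under 0.05 with NDD higher. The DESeq2 call was Slc35a3, which carries UDP-GlcNAc into the Golgi, at 67.9 and 68.7 TPM in NDD and 53, 49.1 and 47.4 TPM in WT (log2 difference 0.48, SE 0.12; adjusted p 0.317 in edgeR). Gfpt1, the first enzyme of UDP-GlcNAc synthesis, was at 578 and 1348 CPM in NDD and 525, 536 and 334 CPM in WT, with NDD replicate 1 close to the WT libraries and only NDD replicate 2 far above them (log2 difference 1.05, unadjusted p 0.0319 in edgeR). Of 21 tested genes of sulfation, other capping and trimming, 0 passed in either tool and 3 (14.3%) had an unadjusted p under 0.05 with NDD higher, among them the lysosomal sialidase Neu1 (log2 fold change 0.46, edgeR adjusted p 0.347). B4galnt2, which makes the Sda antigen in the gut, was at 46.7 and 153 TPM in NDD and 125, 89.8 and 53.9 TPM in WT, with overlap. The 8 goblet markers had a median log2 fold change of 0.31, and 2 had an unadjusted p under 0.05. The median was 0.15 without NDD replicate 2, with 5 of 8 above 0, and 0.48 without WT replicate 1.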

How the data were processed

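RNA of 5 mouse colon spheroid samples (2 NDD, 3 WT) was made into stranded mRNA libraries, per the labels' protocols. The authors made and deposited RSEM estimated counts per gene, which are whole numbers here. The authors also deposited TPM per gene. Bowtie2, RSEM and mm10 are named without versions, per the submitters' processing notes, and the annotation, read handling and strand setting are not given in the sources used here. Depth was 19192389 to 23064000 counts per library.

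All genes were fitted with edgeR 4.0.16 in R 4.3.3 (TMM, filterByExpr, robust quasi-likelihood test, prior count 0.125), and Benjamini-Hochberg adjusted over 13501 genes, with calls at adjusted p under 0.05. The unadjusted p-values come from the same fit, and standard errors are the fold change over the square root of F. Alternatives were DESeq2 1.42.0, limma 3.58.1 on log2(TPM + 1) and log2(TPM + 0.1), other filters and scalings, a replicate block, and leaving out each library. Scripts were tested on simulated data. Sums were tested by exact permutation (scipy 1.17.1). Positions come from GENCODE M21 on GRCm38, the assembly of mm10, and sequences from RefSeq GRCm38.p6. Shared 31-base words were counted between annotated transcripts of different genes.

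The members and lists were chosen with earlier results of these data known. Named genes were those with an adjusted or unadjusted p under 0.05 and the 3 most abundant of each step. Others are named for low levels or library spread, chosen after their values were seen. With 2 and 3 libraries, the spread in the main edgeR fit rests on 3 degrees of freedom before sharing between genes. The replicate block leaves fewer.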

Additional observations from a re-analysis of the deposited data

How the results depend on the processing

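The number of transferases called was 0 in edgeR and 6 in DESeq2. Dropping the low-count filter gave 1, as did the replicate block (St6galnac4, adjusted p 0.0275). It ran from 0 to 5 when 1 library was left out. Over all genes it was 12, and 58 with no filter, 4 with at least 10 counts in every library, 357 with DESeq2, 33 with the replicate block, 33 at adjusted p under 0.10, and 0 (without WT replicate 1) to 1207 (without NDD replicate 1) when 1 library was left out. Other pathway genes called went from 0 to 2 with DESeq2 and 0 to 4 with 1 library left out. Members at an unadjusted p under 0.05, counted under alternatives chosen after seeing the data, went from 11 to 7 in each limma fit (beside 10.5%, 10.3% and, with no filter, 8.34% of all genes) and ran from 6 to 17 with 1 library left out. The limma fits held 46 members with a filter and 59 without. The members' median of 0.21 was 0.07 with limma and no filter and 0.19 to 0.28 with 1 library left out. The cause of these shifts was not tested.

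Of 25 named genes, 17 kept their direction in every fit. In the block fit B4galt3 turned to -0.03, and in the 3 limma fits C1galt1c1 turned to -0.03 and Gcnt2 to -0.02. With 1 library left out, the log2 range crossed 0 for B3gnt3 (-0.05 to 0.17), B4galt3 (-0.04 to 0.15), B4galt6 (-0.16 to 0.02), C1galt1c1 (-0.04 to 0.20), Fut8 (-0.20 to 0.05), Galnt1 (-0.43 to 0.07), Gcnt1 (-0.22 to 0.36) and Gcnt2 (-0.31 to 0.27). The summed TPM differences ran over -0.05 to 0.28 (branching), -0.02 to 0.73 (fucosylation), 0.05 to 0.29 (GlcNAc), 0.08 to 0.18 (core 1), 0.17 to 0.52 (galactose), 0.20 to 0.40 (initiation), 0.60 to 0.86 (sialylation) and 0.36 to 0.47 (all). Deviations of same-numbered libraries correlated at 0.0129 and 0.301, and the labels give the numbers no meaning, so the block pairs libraries by number only. In the block fit the goblet median was 0.23, with 6 of 8 above 0, and the mucin median 0.41.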
